A study of Homo sapiens with 28 samples.

Results

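The comparison described here is that of guide RNA abundance in p53 knockout (KO) U2OS cells after 96 h in 5 µM etoposide with the same pool of KO cells at the start of the assay (T0). It rests on 6 of the 28 libraries of the series, lettered A, B and C in each group, and on all guides, whose counts were summed over the guides of each gene. Of 19050 genes with guides, the 19044 with at least 3 guides were tested. U2OS is a human osteosarcoma line, and its cells were infected as a pool with a genome-wide CRISPR knockout library, in which each cell carries a guide that disrupts 1 gene. The KO etoposide, KO DMSO and KO T0 groups share the loss of p53. The DMSO libraries were also taken at 96 h, and the titles call them untreated. The same 3 groups, again with 3 libraries each, were made from U2OS cells with wild-type p53 (WT). Whether the KO line is 1 clone is not given in the sources used here. The guide identifiers begin with HGLibA or HGLibB, as those of the human GeCKO library do. The labels do not state whether the 3 libraries within a group are separate cultures. The p-values then measure only the spread between these libraries, which may be technical.

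Etoposide traps topoisomerase II on DNA after it has cut both strands. The trapped enzyme becomes a double-strand break that is repaired mainly by end joining, and stalled replication forks and breaks set off the ATR and ATM kinases, which hold the cell cycle until repair is done. p53, which ATM and ATR stabilise, arrests damaged cells through p21 (the product of CDKN1A) or kills them through proteins such as NOXA (the product of PMAIP1), and cells without it depend on the remaining checkpoints. In a pooled screen, a guide gains abundance when cells that lost its target outlast or outgrow the rest of the pool, and it loses abundance when they die or divide less.

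The 6 libraries held between 30437296 and 48230735 counts, and the median guide had between 246 and 395 counts. Levels are given as counts-per-million (CPM) values of the summed guides of a gene, scaled by TMM, and changes as log2 fold changes of etoposide over T0 with their standard errors (SE). Adjusted p-values come from edgeR's quasi-likelihood test with Benjamini-Hochberg adjustment over all 19044 genes, and a gene was called at an adjusted p under 0.05. Guide counts show neither the p53 deletion nor the loss of the protein. The osteoblast-lineage genes RUNX2, COL1A1 and SPARC were detected in the RNA libraries of WT cells at T0 (at least 33.2 CPM each) and ALPL at 20.8 and 22.5 CPM. By contrast, COL1A2, the partner chain of COL1A1, had 1.26 and 1.24 CPM, and the osteoblast genes BGLAP and SP7 reached at most 0.270 CPM. No T0 RNA library of KO cells was used here. No RNA marker can be read in the guide libraries themselves.

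Guides against CASP6, a caspase, set some libraries apart. Together they had 228, 3837 and 259.9 CPM in KO etoposide and 146, 133 and 585 CPM in KO T0. KO etoposide library B stood far above the others, and the groups overlapped. CASP6 was called higher (2.32 ± 0.48 (SE, adjusted p = 0.00184)), but without KO etoposide library B its change was −0.24 and the call was lost, as it also was without KO T0 library A (2.01) or B (1.98).

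Loss of 72 genes was associated with higher and loss of 142 genes with lower abundance in etoposide than at T0, which is 0.378% and 0.746% of the genes tested. Of those whose libraries did not overlap, the highest were MYC, TOP2A, HSPA8 and PMAIP1, and the lowest were CCNA2, RAD9A, PKMYT1 and HUS1. Changes were small: the called genes with higher abundance had a median of 0.22 and those with lower abundance a median of −0.24, beside 0.00 over all genes. Of the 72 genes, 70 had all 3 etoposide libraries above all 3 T0 libraries, and of the 142 genes, 142 had them all below. Over all genes these shares were 7.93% and 8.65%. The genes were called on these same libraries, so the lack of overlap adds no support to the calls. All guides of a gene shared its sign in 43 of the 72 and in 81 of the 142. The gene values are sums over these guides, so this is no separate support, and the share over all genes is not given here. In the RNA of WT cells at T0, 92.8% of the genes with higher and 97.1% of those with lower abundance had at least 1 CPM, beside 66.7% of all tested genes.

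The balance of directions depends on the scaling. Non-targeting guides, which cut nothing, had a median change of 0.03 and 0 of 999 were called. When libraries were scaled to them, every gene moved by about −0.03, and 33 genes were called higher and 299 lower. Guides against 376 olfactory receptor genes, taken as a set with little part in growth, had a median of −0.00 and 0 were called. Leaving out 1 of the 6 libraries at a time gave between 93 called genes (without KO T0 library B) and 136 (without KO etoposide library A).

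**Figure D1:**
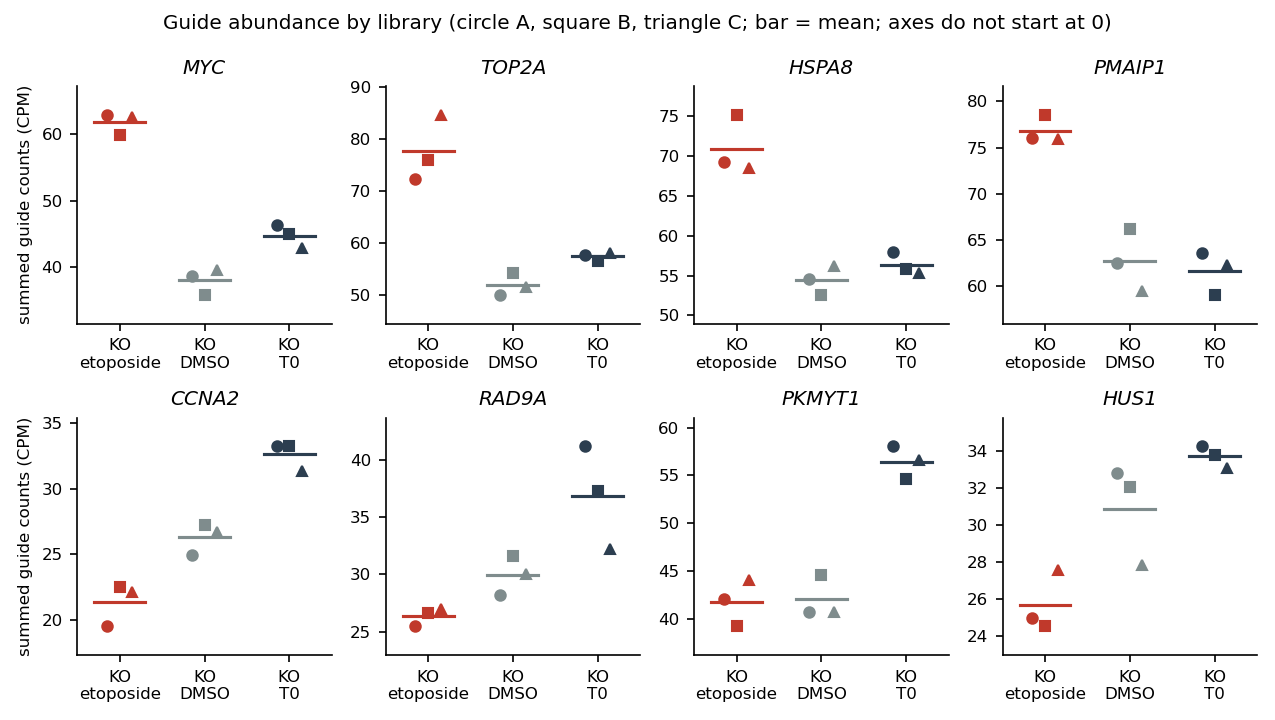
Summed guide counts in CPM (vertical axes, which do not start at 0) of 8 genes in the KO etoposide, KO DMSO and KO T0 libraries; symbols mark libraries A, B and C and bars the means. For MYC, TOP2A, HSPA8 and PMAIP1 the 3 etoposide libraries lie above all other libraries, and for CCNA2, RAD9A and HUS1 below them; PKMYT1 is as low in DMSO as in etoposide.

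TOP2A, the topoisomerase II of dividing cells and a target of the drug, had the second highest change of the called genes whose groups did not overlap. Its guides had 72.4, 76.03 and 84.7 CPM in KO etoposide, 49.98, 54.2 and 51.4 CPM in KO DMSO and 57.6, 56.4 and 58.1 CPM in KO T0. The etoposide libraries lay above every library of the other groups, and the change against T0 was 0.44 ± 0.06 (SE, adjusted p = 4.03e-07), with 6 of 6 guides higher. TOP2B, the isoform found in dividing and resting cells alike, had 56.5, 57.5 and 59.8 CPM in KO etoposide and 55.4, 50.04 and 55.5 CPM in KO T0, and its change of 0.11 ± 0.05 (SE, adjusted p = 0.432) was not called. TDP2, the phosphodiesterase that frees DNA ends from trapped topoisomerase II, went the other way. Its guides had 35.9, 38.5 and 35.96 CPM in KO etoposide and 42.98, 47.1 and 44.4 CPM in KO T0, without overlap, and fell, with a change of −0.29 ± 0.06 (SE, adjusted p = 0.00252), with 6 of 6 guides lower. No other of the 12 genes for topoisomerases and for repair of their DNA adducts was called, among them TOP1 at −0.11 ± 0.05 and TDP1 at −0.08 ± 0.06. None of the 10 drug efflux transporters was called: ABCB1, which pumps etoposide out of cells, was at −0.11 ± 0.06 and ABCC1 at −0.01 ± 0.06. TOP2A kept its call without each library in turn, and TDP2 lost it without KO T0 library B.

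Genes that precede TOP2A on chromosome 17 were also higher as a group, a pattern that was looked for after the values were seen. Tested genes were ordered by the RefSeq annotation of GRCh38.p14, which placed 18727 of them. In the 200 genes before TOP2A (DHRS7B to GJD3), 165 had a positive change, the median was 0.07, and 7 were called higher, among them ERAL1, TAOK1, MLLT6, RPL19, THRA and RARA. In the 50 genes after TOP2A the median was 0.00, and in the next 100 it was −0.01, with 0 called higher in both. Relative to the T0 mean, the 200 genes had medians of 0.06, 0.07 and 0.08 in KO etoposide libraries A, B and C, and of −0.01, −0.01 and 0.00 in the KO DMSO libraries. The 3 etoposide libraries were thus alike and stood above the DMSO and T0 libraries. In WT cells the median of the same genes in etoposide against T0 was 0.04. Windows of 50 genes were moved over the genome in steps of 25 genes, so that neighbouring windows overlap. Among these 716 windows, 7 of the 10 with the highest medians lay on chromosome 17, and the highest reached 0.09. The 7 windows follow each other from MAPK7 to ORMDL3 and so cover a single region. TOP2A itself was at 0.44, and the 20 tested genes nearest to it had a median of 0.04. The part of this regional shift in the calls of the genes in it, RPL19 and TAOK1 included, was not tested. Some regions were low instead, and the lowest window, RPL3L to HCFC1R1 on chromosome 16, had a median of −0.09. The 20 tested genes nearest to RAD9A, to ASNA1 and to SPC24 had a median of −0.05 in each case. Those nearest to HUS1 were at −0.02 and those nearest to CCNA2 at 0.02. The part of low regions in the lower calls was not tested either.

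**Figure D2:**
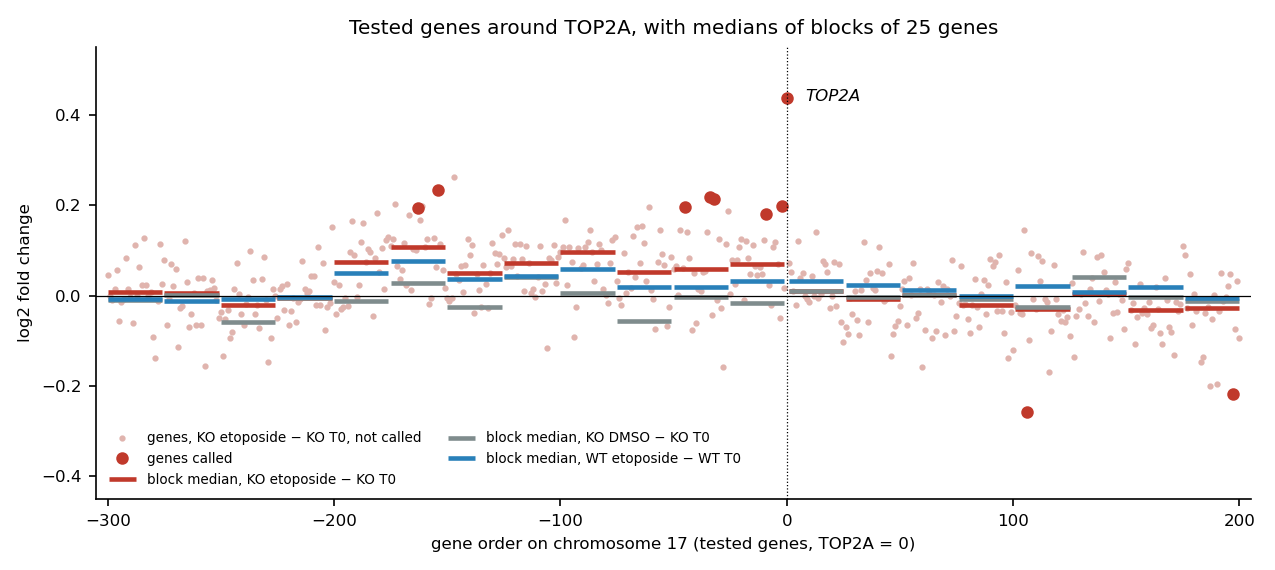
Log2 fold changes (vertical axis) of tested genes by their order on chromosome 17 relative to TOP2A at 0 (horizontal axis); dots are genes in KO etoposide against KO T0, large dots those called, and lines the medians of blocks of 25 genes in 3 comparisons. The KO etoposide block medians lie between 0.05 and 0.11 over the 200 genes before TOP2A and at or below 0.01 after it; KO DMSO shares the T0 libraries with KO etoposide.

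The checkpoint kinase ATR and the ring-shaped clamp that activates it were called lower. The clamp is made of RAD9A, HUS1 and RAD1, and all 3 fell. RAD9A guides had 25.5, 26.6 and 26.99 CPM in KO etoposide, 28.2, 31.6 and 30.1 CPM in KO DMSO and 41.2, 37.2 and 32.2 CPM in KO T0, and fell, with a change of −0.48 ± 0.07 (SE, adjusted p = 1.94e-06) with 5 of 5 guides lower. HUS1 guides had 24.96, 24.5 and 27.6 CPM in KO etoposide, 32.8, 32.1 and 27.8 CPM in KO DMSO and 34.3, 33.8 and 33.1 CPM in KO T0, and fell, with a change of −0.39 ± 0.07 (SE, adjusted p = 0.000147) with 6 of 6 guides lower. For both genes the etoposide libraries were below every DMSO and T0 library. RAD1 guides had 64.4, 65.99 and 62.6 CPM in KO etoposide and 69.5, 73.9 and 76.7 CPM in KO T0, a smaller change of −0.19 ± 0.05, again without overlap. ATR guides had 39.3, 38.2 and 41.9 CPM in KO etoposide and 49.8, 51.1 and 49.5 CPM in KO T0, and fell, with a change of −0.34 ± 0.06 (SE, adjusted p = 5.23e-05). In KO DMSO, which shares the T0 libraries, RAD9A was at −0.30 ± 0.07, HUS1 at −0.13 ± 0.07, RAD1 at −0.08 ± 0.04 and ATR at −0.12 ± 0.06.

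Downstream of ATR, CHEK1, the kinase that carries its signal, fell to 39.7, 43.6 and 37.6 CPM in KO etoposide, against 44.8, 47.3 and 48.5 CPM in KO T0, a change of −0.22 ± 0.06 (SE, adjusted p = 0.0363). PKMYT1, which holds CDK1 inactive before mitosis, had 42.04, 39.2 and 44.05 CPM in KO etoposide and 58.1, 54.6 and 56.6 CPM in KO T0, and fell, with a change of −0.43 ± 0.06 (SE, adjusted p = 1.01e-07). In DMSO its change was −0.42 ± 0.06, and etoposide and DMSO libraries overlapped. The 20 tested genes nearest to PKMYT1 on chromosome 16 had a median of −0.11 in etoposide against T0. In all, 6 of the 17 genes of the ATR and CHK1 list were called lower and 0 higher, with a median of −0.08. In DMSO the list's median was −0.08, with 3 genes called lower, and in etoposide against DMSO 2 genes were called lower. Genes of the list that were not called included the clamp loader RAD17 at 0.00 ± 0.06, the ATR activator TOPBP1 at −0.07 ± 0.06, the ATR partner ATRIP at −0.08 ± 0.06 and the kinase WEE1 at 0.06 ± 0.06. The calls of ATR, RAD9A, HUS1 and PKMYT1 stayed without each library in turn, while the HUS1 call was lost without its most abundant guide. Those of CHEK1 and RAD1 were not followed in these fits.

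CCNA2 had the lowest value of all genes. It encodes cyclin A2, which drives S phase and entry into mitosis. Its guides had 19.5, 22.5 and 22.2 CPM in KO etoposide, 24.96, 27.3 and 26.7 CPM in KO DMSO and 33.2, 33.2 and 31.4 CPM in KO T0, so the DMSO libraries lay between the others. The change against T0 was −0.61 ± 0.07 (SE, adjusted p = 2.42e-09) with 5 of 5 guides lower, and against DMSO it was −0.30 ± 0.07 (SE, adjusted p = 0.00525), a call lost without KO etoposide library A. Among cell cycle genes, CDK2, a partner kinase of cyclin A2, fell to 42.8, 42.7 and 43.9 CPM in KO etoposide, against 48.5, 51.9 and 52.4 CPM in KO T0, a change of −0.24 ± 0.06, and CCND1, a cyclin of G1, fell, with a change of −0.27 ± 0.05. FZR1, which activates the anaphase-promoting complex in G1 and after damage in G2, had 46.7, 42.98 and 41.6 CPM in KO etoposide, 55.01, 51.3 and 53.5 CPM in KO DMSO and 55.4, 54.3 and 55.6 CPM in KO T0, and fell, with a change of −0.33 ± 0.05 (SE, adjusted p = 2.51e-05). E2F1, a transcription factor of S-phase genes, was higher at 52.4, 55.99 and 51.5 CPM in KO etoposide, against 44.5, 44.5 and 47.9 CPM in KO T0, a change of 0.22 ± 0.05. CUL1 and SKP1, the scaffold and the adaptor of SCF ubiquitin ligases, fell, with changes of −0.39 ± 0.06 and −0.28 ± 0.06, with −0.45 ± 0.06 and −0.35 ± 0.06 in DMSO. CDK2 lost its call without KO T0 library B or C, and E2F1 without KO etoposide library B or KO T0 library A or B. CDK2, CCND1 and E2F1 also lost it without the most abundant guide.

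Of 42 DNA replication genes, 6 fell and 0 rose, and the list's median was −0.10. They were MCM2, MCM6 and MCM7 of the replicative helicase, GINS3 and GINS4 of its GINS subcomplex, and RFC5 of the clamp loader. GINS3 was the lowest, with 39.3, 35.2 and 39.2 CPM in KO etoposide and 46.6, 45.01 and 53.5 CPM in KO T0 and a change of −0.35 ± 0.06 (SE, adjusted p = 0.000147). The list's median in DMSO, against the same T0 libraries, was −0.10, with 10 genes lower. GINS3 and GINS4 changed by −0.34 ± 0.06 and −0.25 ± 0.06 there. Of 39 mitosis and spindle checkpoint genes, CCNA2 and SPC24, a kinetochore protein, were called lower and the median was −0.02, against −0.11 in DMSO. Under scaling to the non-targeting guides 10 replication and 5 mitosis genes were called lower. GINS4 lost its call without KO T0 library B and RFC5 without KO etoposide library B, and RFC5 and SPC24 lost it without the most abundant guide.

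Of 18 genes of double-strand break repair by end joining, 3 fell and 0 rose, with a median of −0.06. LIG4, the ligase of this pathway, had 43.3, 48.4 and 47.7 CPM in KO etoposide, 55.5, 56.5 and 55.6 CPM in KO DMSO and 54.3, 56.7 and 52.4 CPM in KO T0. The etoposide libraries were below all others, and the change was −0.23 ± 0.05 (SE, adjusted p = 0.00528), while in DMSO it was 0.04 ± 0.05. XRCC5, a subunit of the Ku ring that binds broken ends, had 34.1, 31.2 and 33.5 CPM in KO etoposide and 36.7, 38.5 and 41.7 CPM in KO T0, and fell, with a change of −0.24 ± 0.06 (SE, adjusted p = 0.0303). MAD2L2, which acts in shieldin and in translesion synthesis, fell, with a change of −0.24 ± 0.05. In DMSO XRCC5 was at −0.13 ± 0.06 and MAD2L2 at −0.27 ± 0.05, and the direct test of etoposide against DMSO called neither, at −0.11 ± 0.06 and 0.03 ± 0.05. Over the list the DMSO median was −0.03, with 2 genes called lower. REV3L, the translesion partner of MAD2L2, named after its value was seen, is the catalytic subunit of polymerase zeta and changed by −0.25 ± 0.05, which was called. XRCC4, the partner of LIG4, was at −0.06 ± 0.06, the other Ku subunit XRCC6 at −0.26 ± 0.09 and the kinase PRKDC at −0.06 ± 0.05, none of them called.

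In the list for break sensing and ATM, 2 of 14 genes fell. They were H2AFX, the histone variant marked at breaks, and MDC1, the adaptor that binds the marked histone. H2AFX guides had 36.6, 34.6 and 32.4 CPM in KO etoposide and 44.8, 42.9 and 41.1 CPM in KO T0, a change of −0.31 ± 0.06 (SE, adjusted p = 0.00104), and MDC1 changed by −0.22 ± 0.05. In DMSO H2AFX was at −0.29 ± 0.06 and MDC1 at −0.10 ± 0.05, and no gene of the list was called in etoposide against DMSO. ATM itself was at −0.02 ± 0.06, CHEK2 at 0.09 ± 0.05 and TP53BP1 at −0.05 ± 0.05. Of 33 genes of homologous recombination and the Fanconi pathway, BARD1, the partner of BRCA1, was the 1 called, at −0.29 ± 0.07, while BRCA1 was at −0.06 ± 0.05. LIG4, MAD2L2 and MDC1 each lost the call without KO etoposide library A, LIG4 and MAD2L2 also without KO T0 library B and MDC1 without KO T0 library C. XRCC5 lost it in 4 and BARD1 in 3 of the 6 such fits.

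PMAIP1 encodes NOXA, which binds and neutralises MCL1. Its guides had 76.1, 78.6 and 75.9 CPM in KO etoposide, 62.6, 66.2 and 59.5 CPM in KO DMSO and 63.6, 59.1 and 62.3 CPM in KO T0, and rose by 0.32 ± 0.05 (SE, adjusted p = 1.94e-06) with 6 of 6 guides higher. The etoposide libraries stood above all the others, and in DMSO the change was 0.03 ± 0.05. It was the 1 gene called of 11 BH3-only genes and effectors: BAX was at 0.06 ± 0.05, BAK1 at 0.10 ± 0.05 and BBC3, which encodes PUMA, at −0.05 ± 0.05. BCL2L1, the gene of the survival protein BCL-XL, had 56.1, 55.2 and 52.99 CPM in KO etoposide and 66.7, 70.04 and 65.99 CPM in KO T0, and fell, with a change of −0.30 ± 0.05 (SE, adjusted p = 1.97e-05), with 6 of 6 guides lower. It was the 1 gene called of 6 survival genes of the family, and MCL1 was at −0.06 ± 0.05.

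Of 12 apoptosome and caspase genes, 4 were called higher and 0 lower. They included CASP6, whose counts swung between libraries, APAF1, the scaffold of the apoptosome, and CYCS, the cytochrome c that triggers its assembly. APAF1 had 47.3, 46.2 and 49.98 CPM in KO etoposide and 39.8, 41.2 and 42.6 CPM in KO T0, a change of 0.21 ± 0.06 (SE, adjusted p = 0.0404), and CYCS had 60.6, 63.1 and 58.8 CPM in KO etoposide and 56.5, 53.4 and 48.7 CPM in KO T0, a change of 0.20 ± 0.05 (SE, adjusted p = 0.0253). Neither gene's groups overlapped. CASP9, the caspase the apoptosome activates, was at 0.13 ± 0.05 and was not called. CYCS, which is also part of the respiratory chain, lost its call without 4 of the 6 libraries and under scaling to the non-targeting guides, which left 2 genes of the list called. The APAF1 call was not followed without single libraries.

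RNF31, the catalytic subunit of the linear ubiquitin ligase that restrains death signalling from TNF receptors, was the 1 gene called of 18 in that list. Its guides had 42.2, 42.1 and 45.1 CPM in KO etoposide, 55.6, 47.7 and 55.5 CPM in KO DMSO and 54.1, 53.1 and 51.9 CPM in KO T0, a change of −0.30 ± 0.05 (SE, adjusted p = 0.000278) against T0 and of −0.00 ± 0.05 in DMSO. Its partner SHARPIN was at −0.20 ± 0.06 and RBCK1 at −0.13 ± 0.05. Named after their values were seen, TRAF2, an adaptor of the same receptors, and MAP3K7, the kinase TAK1 that they recruit, fell, with changes of −0.27 ± 0.05 and −0.26 ± 0.05. GPX4, which protects membranes from lipid peroxidation, had 44.03, 42.5 and 46.2 CPM in KO etoposide, 39.4, 34.9 and 39.2 CPM in KO DMSO and 57.7, 53.5 and 51.4 CPM in KO T0. It fell less in etoposide (−0.29 ± 0.06) than in DMSO (−0.52 ± 0.06), and the direct comparison of etoposide with DMSO gave 0.23 ± 0.06 (SE, adjusted p = 0.0114).

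MYC, the growth-promoting transcription factor, had the highest change of the called genes whose groups did not overlap. Its guides had 62.9, 59.9 and 62.6 CPM in KO etoposide, 38.8, 35.9 and 39.6 CPM in KO DMSO and 46.3, 45.03 and 42.97 CPM in KO T0. The etoposide libraries were the highest and the DMSO libraries the lowest, and the change against T0 was 0.47 ± 0.06 (SE, adjusted p = 2.42e-09) with 6 of 6 guides higher, while in DMSO it was −0.23 ± 0.06 (SE, adjusted p = 0.00475). MNT, which competes with MYC for its partner MAX, was lower, with a change of −0.19 ± 0.05, a call lost without 5 of the 6 libraries. HSPA8, the constitutive HSP70 chaperone, had 69.2, 75.2 and 68.5 CPM in KO etoposide and 57.9, 55.9 and 55.3 CPM in KO T0, and rose by 0.33 ± 0.05 (SE, adjusted p = 4.31e-06). Whether guides against HSPA8 or the ribosomal protein genes also cut pseudogenes was not checked. KLF5, a transcription factor of proliferating cells, had 40.1, 35.1 and 39.2 CPM in KO etoposide, 49.00, 45.9 and 50.7 CPM in KO DMSO and 48.7, 47.9 and 44.8 CPM in KO T0, and fell, with a change of −0.30 ± 0.06 (SE, adjusted p = 0.000626). Of 22 growth brakes, TAOK1, a kinase upstream of the Hippo pathway, rose by 0.23 ± 0.05 and TSC2, which restrains mTORC1, fell, with a change of −0.19 ± 0.05, a call lost without 5 of the 6 libraries. Under scaling to the non-targeting guides 2 growth brakes and 2 genes of the list with RNF31 were called lower.

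**Figure D3:**
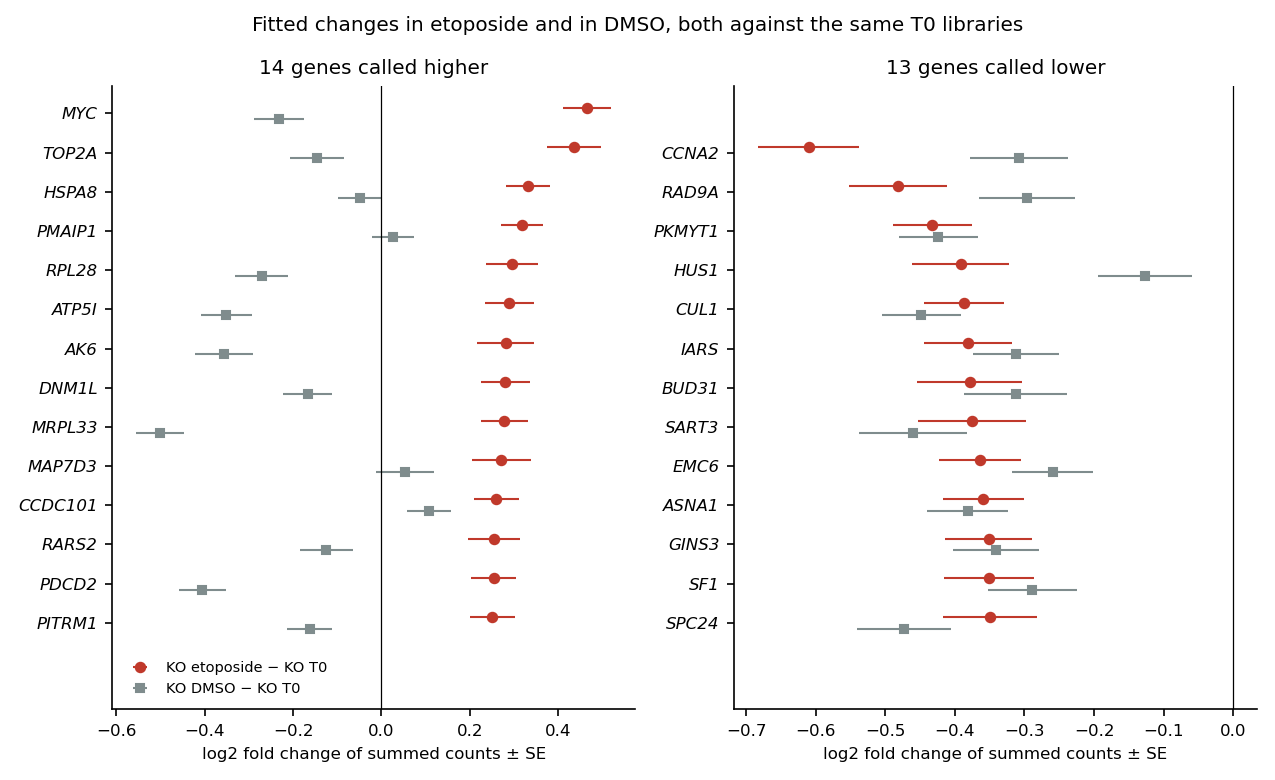
Log2 fold changes with SE bars (horizontal axes) of the 14 highest called genes by the rule for named genes and 13 of the 14 lowest, in KO etoposide (circles) and KO DMSO (squares), both against the same 3 KO T0 libraries. Of the genes higher in etoposide, MRPL33, PDCD2, AK6 and ATP5I lie far below 0 in DMSO, and the 13 genes lower in etoposide also lie below 0 in DMSO, with HUS1 the nearest to 0.

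Named genes with higher abundance included several of mitochondria and of ribosomes. MRPL33, a protein of the mitochondrial ribosome, had 65.2, 66.1 and 66.3 CPM in KO etoposide, 35.5, 39.9 and 39.6 CPM in KO DMSO and 53.2, 56.9 and 52.6 CPM in KO T0. The DMSO libraries lay lowest and the etoposide libraries highest, without overlap between any pair of groups. It rose by 0.28 ± 0.05 (SE, adjusted p = 0.000594) in etoposide and fell, with a change of −0.50 ± 0.05 (SE, adjusted p = 3.3e-11) in DMSO. PDCD2, a chaperone of a small-subunit ribosomal protein, showed the same order, with 69.8, 67.5 and 65.4 CPM in KO etoposide, 41.2, 45.7 and 41.5 CPM in KO DMSO and 53.5, 58.6 and 57.7 CPM in KO T0. ATP5I, a subunit of the ATP synthase, had 60.6, 57.5 and 53.02 CPM in KO etoposide, 37.5, 36.3 and 36.02 CPM in KO DMSO and 50.3, 47.3 and 42.7 CPM in KO T0, a change of 0.29 ± 0.06 in etoposide and −0.35 ± 0.06 in DMSO. RPL28, of the cytosolic ribosome, changed by 0.30 ± 0.06 in etoposide and −0.27 ± 0.06 in DMSO. AK6, a kinase of ribosome assembly, changed by 0.28 ± 0.07 in etoposide and −0.36 ± 0.07 in DMSO. TAF9, whose gene overlaps that of AK6, was at 0.02 ± 0.07 in etoposide.

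DNM1L, which divides mitochondria, rose by 0.28 ± 0.06, PITRM1, a mitochondrial protease, by 0.25 ± 0.05 and RARS2, the mitochondrial arginyl-tRNA synthetase, by 0.25 ± 0.06. Over the 76 genes of the mitochondrial ribosome, 4 were called higher (MRPL33, MRPL36, MRPS7 and MRPS12) and 0 lower, 68 changes were positive, and the median was 0.07. In DMSO the median of the same genes was −0.10, with 19 called lower, and in WT etoposide against WT T0 it was 0.01 with 0 called. Complex I had 1 gene of 40 called higher (NDUFB8, 0.21 ± 0.05) and a median of 0.07, against −0.04 in DMSO. The ATP synthase had 1 of 15 called and a median of 0.07, against −0.07 in DMSO. Of 20 glycolysis genes, PKM and HK2 were called higher, at 0.20 ± 0.05 and 0.18 ± 0.05, and the median was 0.10, against −0.03 in DMSO. Of a list of 32 mitochondrial RNA and translation factors, drawn up after the values were seen, 5 were higher and 0 lower: GRSF1, RPUSD4, SUPV3L1, ERAL1 and GFM1. Under scaling to the non-targeting guides 3 of this list were called.

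These list medians were small beside the change of a called gene, and all 3 comparisons of KO groups share libraries in pairs. Under scaling to the non-targeting guides the medians of the mitochondrial ribosome, complex I, the ATP synthase and glycolysis stayed positive, at 0.05, 0.04, 0.04 and 0.07, with 2, 0, 1 and 0 genes called higher. The median of 77 cytosolic ribosome genes, 0.02 with RPL28 and RPL19 called higher, turned to −0.01 under that scaling. Their median in DMSO was −0.18, with 22 called lower. tRNA-modifying complexes had 2 of 21 called higher, KTI12 and MOCS3, with a median of 0.07 in etoposide and −0.17 in DMSO, and 0 were called under that scaling. POP5, a protein of RNase P and RNase MRP, was at 0.22 ± 0.06 in etoposide and −0.44 ± 0.06 in DMSO. Of these genes DNM1L, MRPL33, PDCD2 and PITRM1 kept their calls without each library in turn, ATP5I lost it without KO T0 library C, RPL28 without KO T0 library B and RARS2 without KO etoposide library A or KO T0 library B. AK6, PKM, KTI12, POP5 and NDUFB8 lost theirs in 4 of the 6 fits, HK2 and MOCS3 in 5, MRPS7 in 3, and MRPS12 and RPL19 in all 6. Without the most abundant guide MRPL33, PDCD2 and RARS2 also lost the call, and with equal weight per guide MRPL33 did.

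**Figure D4:**
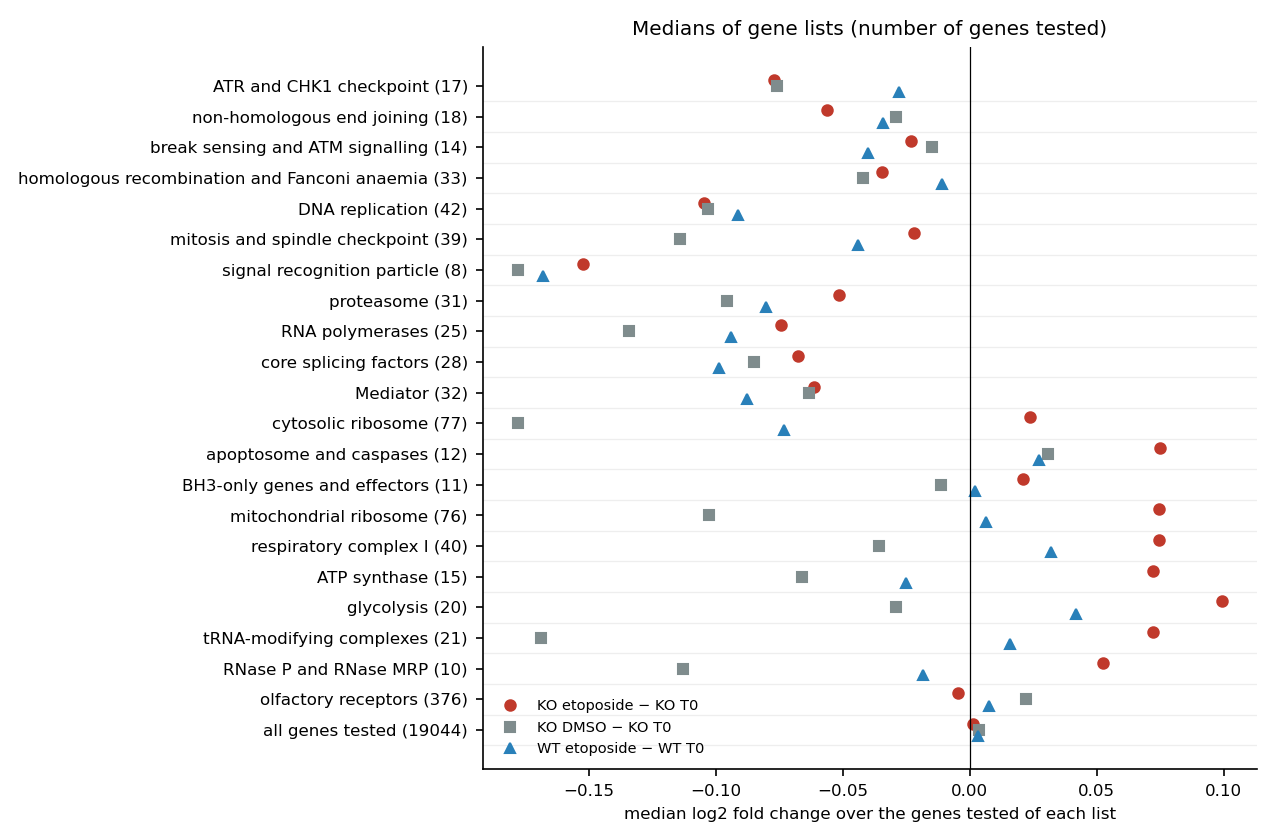
Median log2 fold change (horizontal axis) over the tested genes of 20 gene lists, the olfactory receptor genes and all genes, in KO etoposide and KO DMSO, each against KO T0, and in WT etoposide against WT T0. The mitochondrial ribosome lies at 0.07 in KO etoposide, −0.10 in KO DMSO and 0.01 in WT etoposide; the small positive medians of the cytosolic ribosome and the BH3-only genes in KO etoposide turn negative under scaling to the non-targeting guides.

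Of 37 aminoacyl-tRNA synthetases, the mitochondrial enzymes RARS2 and MARS2 were called higher and the cytosolic enzymes IARS, DARS, AARS and VARS lower. IARS, the isoleucine enzyme, was the lowest of these at −0.38 ± 0.06 (SE, adjusted p = 3e-05), with −0.31 ± 0.06 in DMSO. All 8 genes of the signal recognition particle and its receptor had negative changes, with a median of −0.15 in etoposide, −0.18 in DMSO and −0.17 in WT etoposide. Of these SRP14 was called, with 49.5, 47.8 and 46.9 CPM in KO etoposide and 60.9, 60.9 and 58.3 CPM in KO T0 and a change of −0.32 ± 0.05 (SE, adjusted p = 2.21e-05). None of 31 proteasome genes and none of 28 core splicing factors was called, at medians of −0.05 and −0.07. Of 25 RNA polymerase genes POLR2I fell, at −0.33 ± 0.08 over its 3 guides, and of 32 Mediator genes MED17 and MED20 fell, at −0.23 ± 0.06 and −0.22 ± 0.05. POLR2I and MED17 lost their calls in 4 and MED20 in 3 of the 6 fits without 1 library, and all 3 without the most abundant guide. DARS lost its call without KO etoposide library C or KO T0 library A. Under scaling to the non-targeting guides 1 proteasome gene, 2 core splicing factors, 4 RNA polymerase genes, 4 Mediator genes and 2 genes of the signal recognition particle were called lower.

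Further groups were put together after their values were seen, so their counts support nothing beyond the genes named. For insertion of proteins into the endoplasmic reticulum, EMC6, MMGT1 and EMC3 of the ER membrane protein complex fell, with changes of −0.36 ± 0.06, −0.32 ± 0.06 and −0.18 ± 0.05, and ASNA1 and GET4 of the tail-anchored protein pathway fell as well, at −0.36 ± 0.06 and −0.23 ± 0.06. For the dolichol-linked glycan, ALG2, GMPPB, ALG14, DPAGT1 and DHDDS fell, with changes between −0.32 and −0.22. In the SUMO pathway, RNF4, a ubiquitin ligase that acts on SUMO-modified proteins, fell, with a change of −0.34 ± 0.08, and SUMO2 fell, with −0.26 ± 0.06. In KO DMSO against T0, 4 of 10 genes of the ER membrane protein complex and 1 of 7 of the tail-anchored protein pathway were called lower. So were 7 of 30 dolichol and glycan genes and 2 of 17 SUMO pathway genes. In etoposide against DMSO, 0 genes of these lists were called. The splicing proteins BUD31, SART3 and SF1 fell, with changes of −0.38 ± 0.08, −0.38 ± 0.08 and −0.35 ± 0.07, and BUD31 and SF1 lost the call without the most abundant guide. On the higher side, 3 of 20 subunits of the SAGA coactivator were called: CCDC101, which reads a histone mark, at 0.26 ± 0.05, TADA1 at 0.23 ± 0.04 and TAF5L at 0.19 ± 0.05. CCDC101 guides had 63.2, 68.8 and 70.1 CPM in KO etoposide, 59.1, 61.3 and 61.1 CPM in KO DMSO and 58.6, 54.3 and 55.8 CPM in KO T0. MAP7D3, a microtubule-associated protein, rose by 0.27 ± 0.07, a call lost without 4 of the 6 libraries.

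Etoposide and DMSO at 96 h were also compared directly. In KO cells 581 genes were higher in etoposide than in DMSO and 225 lower, 3.05% and 1.18% of those tested. Scaled to the non-targeting guides, these counts were 835 and 107. DMSO against T0 gave 80 genes higher (0.42%) and 588 lower (3.09%). Of the 376 olfactory receptor genes, 7 were called higher and 0 lower in DMSO against T0. In etoposide against DMSO 9 of them were called lower and 0 higher, with a median of −0.03. Of the 999 non-targeting guides, 2 were called in etoposide against DMSO. The highest by the rule for named genes were MRPL33 at 0.78 ± 0.05 (SE, adjusted p = 7.4e-22), MYC at 0.70 ± 0.06, POP5 at 0.66 ± 0.06, PDCD2 at 0.66 ± 0.05, ISCA2, which assembles mitochondrial iron-sulfur proteins, at 0.65 ± 0.06 and MRPL39 at 0.65 ± 0.05. Of these, ISCA2 and MRPL39 were not called against T0, at 0.19 ± 0.06 and 0.15 ± 0.05. The lowest were KLF5 at −0.34 ± 0.06 (SE, adjusted p = 8.63e-06), SREBF2 at −0.34 ± 0.07, TMSB4Y at −0.31 ± 0.07, CCNA2 at −0.30 ± 0.07, RNF31 at −0.29 ± 0.05 and FZR1 at −0.28 ± 0.05. The TMSB4Y call was lost with equal weight per guide and without the most abundant guide. Whether U2OS cells carry the TMSB4Y gene was not checked, so its value may not reflect loss of that gene. SREBF2, the transcription factor of cholesterol synthesis, had 28.2, 32.5 and 30.7 CPM in KO etoposide, 40.7, 38.5 and 36.6 CPM in KO DMSO and 31.1, 34.7 and 33.1 CPM in KO T0. Its etoposide and T0 libraries overlapped, and the DMSO libraries stood above both.

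The 72 genes called higher against T0 had medians of 0.22 in etoposide against T0, 0.24 in etoposide against DMSO and −0.01 in DMSO against T0. The 142 genes called lower had medians of −0.24, −0.05 and −0.20 in the same comparisons. Of the 142 genes, 82 were also called lower in DMSO against T0. In etoposide against DMSO, 20 of them were called lower and 1 higher. Of the 72 genes, 50 were called higher in etoposide against DMSO, and in DMSO against T0 2 were called higher and 18 lower. These values share libraries, and the genes were picked on etoposide against T0. In the direct test LIG4 differed between etoposide and DMSO by −0.27 ± 0.05 (SE, adjusted p = 0.000153), TOP2A by 0.58 ± 0.06 (SE, adjusted p = 8.09e-13) and PMAIP1 by 0.29 ± 0.05 (SE, adjusted p = 2.42e-06). ATR differed by −0.21 ± 0.06 (SE, adjusted p = 0.0155) and HUS1 by −0.27 ± 0.07 (SE, adjusted p = 0.0129). The test did not call RAD9A at −0.19 ± 0.07 (SE, adjusted p = 0.134), PKMYT1 at −0.01 ± 0.06 (SE, adjusted p = 0.964), TDP2 at −0.16 ± 0.06 (SE, adjusted p = 0.146), BCL2L1 at −0.12 ± 0.05 (SE, adjusted p = 0.192) or CUL1 at 0.06 ± 0.06 (SE, adjusted p = 0.648).

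The change from T0 to etoposide was then compared between genotypes. In WT cells 13 genes were higher (0.0683%) and 150 lower (0.788%). The difference, KO minus WT, was called for 1 gene of 19044, 0.00525%, and 1212 genes had an unadjusted p under 0.05. That gene was CDKN1A, which encodes the cell cycle inhibitor p21, a target of p53. Its guides had 41.1, 42.9 and 40.2 CPM in KO etoposide and 44.4, 43.96 and 45.95 CPM in KO T0, a change of −0.11 ± 0.06 (SE, adjusted p = 0.46). In WT cells they had 34.1, 33.6 and 34.4 CPM in etoposide and 50.7, 52.7 and 54.6 CPM at T0, a change of −0.63 ± 0.06 (SE, adjusted p = 1.55e-15). KO and WT differed by 0.52 ± 0.08 (SE, adjusted p = 5.92e-05). The call stayed without each of the 12 libraries in turn, and it was lost without the most abundant guide of the gene (0.45, adjusted p = 0.123).

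TOP2A guides had 56.9, 59.1 and 51.4 CPM in WT etoposide and 47.5, 49.3 and 66.9 CPM in WT T0, with overlap, and KO minus WT was 0.41 ± 0.09 (SE, adjusted p = 0.0509). HUS1 was at 0.04 ± 0.07 in WT cells and its difference was −0.44 ± 0.10 (SE, adjusted p = 0.0705), and GPX4 was at −0.66 ± 0.06 with a difference of 0.37 ± 0.08 (SE, adjusted p = 0.0705). MYC rose in WT cells as well, at 0.32 ± 0.06 (SE, adjusted p = 8.02e-05), with a difference of 0.14 ± 0.08 (SE, adjusted p = 0.805). CCNA2 was called lower in both, with −0.60 ± 0.07 in WT cells and a difference of −0.01 ± 0.10. Genes called in KO cells and not in WT cells are thus not shown to differ between them. With DESeq2 the count of genes that differed was 14, and it was 17 when the DMSO libraries were left out of the fit.

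Single guides were tested as well, over 109367 guides. Of these 8 were called higher and 42 lower, 0.00731% and 0.0384%. The lower guides included 2 each against CCNA2, RAD9A, CUL1 and SRP14 and 1 each against LIG4, HUS1, PKMYT1, FZR1, RNF31 and BCL2L1, the last at −1.25 ± 0.22. The higher guides included 1 against TOP2A, at 0.57 ± 0.10, and 1 against TAOK1. For SCNN1G, an epithelial sodium channel subunit, 1 guide at 1.45 ± 0.21 stood beside a gene value of 0.23 ± 0.06. For ABCB1, 1 guide was called at −1.09 ± 0.23, and this guide had 1.66, 1.56 and 1.77 CPM in KO etoposide and 2.66, 3.49 and 4.47 CPM in KO T0, among the lowest counts of the gene's 6 guides. Of the 142 lower genes, 112 had no guide called on its own, and 126 had at least 2 guides lower at an unadjusted p under 0.05. Of the 72 higher genes, 66 had no guide called on its own, and 56 had at least 2 guides higher at that p. These guides make up the sums on which the genes were called, so the counts are no separate support. The shares over all genes are not given here.

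**Figure D5:**
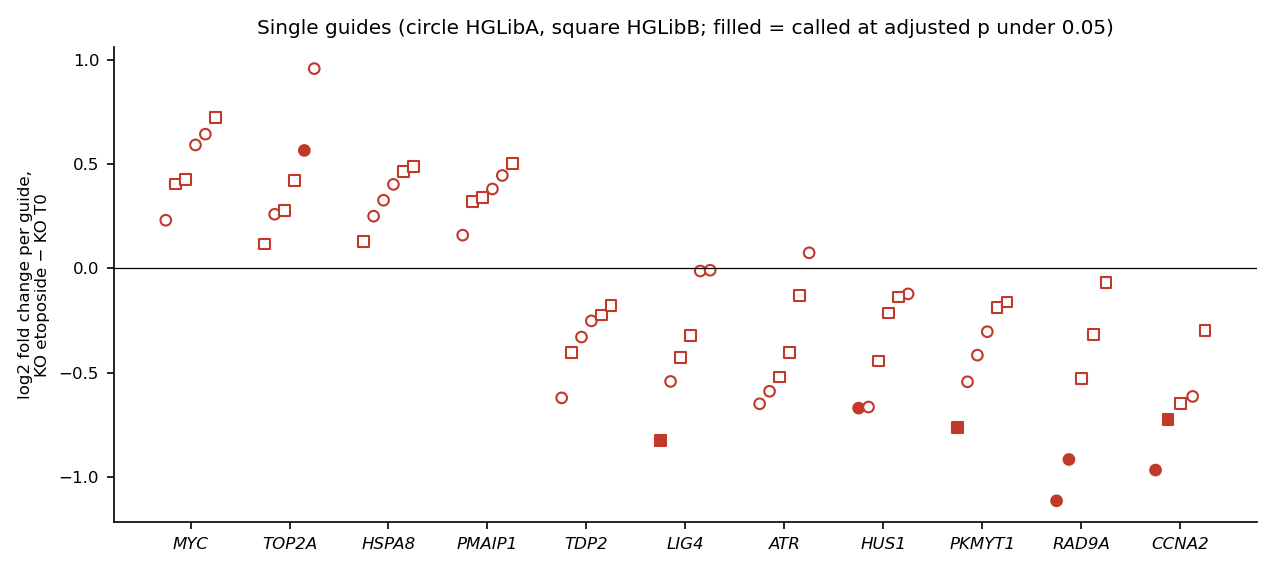
Log2 fold change of single guides (vertical axis), KO etoposide against KO T0, for 11 genes; circles and squares mark guides whose identifiers begin with HGLibA and HGLibB, and filled symbols guides called at an adjusted p under 0.05. All 6 guides lie above 0 for MYC, TOP2A, HSPA8 and PMAIP1, and all guides lie below 0 for TDP2, LIG4, HUS1, PKMYT1, RAD9A and CCNA2, with 1 ATR guide above 0.

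Several called genes have near-identical copies, so that a guide can cut more than 1 of them. They include NOMO1, NOMO2 and NOMO3 at −0.24 ± 0.05, −0.20 ± 0.05 and −0.25 ± 0.05, the histone genes HIST2H2AA3 and HIST2H2AA4 at −0.23 ± 0.05 and −0.21 ± 0.05, and RBM14 and the read-through gene RBM14-RBM4 at −0.29 ± 0.08 and −0.32 ± 0.06. Each pair or trio may be 1 observation and not several.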

How the data were processed

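The authors deposited raw read counts per guide and library, from guides amplified out of genomic DNA. Bowtie2 and DESeq2 are listed in the submitters' processing notes, with no version. The table lists 109367 guides, of which 999 are non-targeting, and 13928 genes with 6 guides. Its lowest mean count per guide over the 18 screen libraries is 62.6, and the lowest count in a KO etoposide or KO T0 library is 10. Whether guides with low counts were left out before deposit was not checked. Columns left unmapped to a sample numbered 0. The authors also deposited RNA counts, used here for levels at T0 in CPM. Guide sequences are not used here. Gene order comes from a RefSeq table (GRCh38.p14).

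Guide counts were added up per gene (at least 3 guides). TMM scaling and the quasi-likelihood test of edgeR were applied to all 18 screen libraries in 1 fit with 12 residual degrees of freedom, and p-values were adjusted by Benjamini-Hochberg over 19044 genes at a threshold of 0.05. Each SE was derived from the test, as the size of the log2 fold change divided by the square root of the F statistic. Single guides were fitted the same way. The procedure for summed counts was run on simulated data with larger changes than most called genes had and without shifts by region. It therefore does not show how well changes of the size reported here are found, and single guides were not simulated. Alternatives were scaling to the non-targeting guides, DESeq2 on the same sums, a minimum of 100 counts at T0, limma with equal weight per guide (mean log2 CPM, prior count 2), leaving out the most abundant guide, fewer libraries and a block for the replicate letter. Software was R 4.3.3 with edgeR 4.0.16, DESeq2 1.42.0 and limma 3.58.1. Each group has 3 libraries, and no set test was run.

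The members, 34 gene lists, tests and rules were chosen with earlier results of these data known. A further 6 lists, the gene order along chromosomes, and the alternatives with only HGLibA or HGLibB guides, without 3 guides that swung between libraries or without KO etoposide libraries A and B were added after the values were seen. Named genes were the 14 highest and 14 lowest called genes whose libraries did not overlap and of whose guides at least 2 of 3 shared the sign, 6 each way for the other comparisons, the 3 members of each list with the smallest p, and a fixed set around p53, topoisomerases and drug response. Other genes were named after their values were seen, and a few genes are not reported here.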

Additional observations from a re-analysis of the deposited data

Results flagged for a closer look

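The difference between genotypes in the change from T0 to etoposide stood out for CDKN1A, at 0.52 on the log2 scale for KO minus WT, the 1 gene called in the test of that difference. For RPL28 and MRPL39 the 3 etoposide libraries lay above the 3 T0 libraries in KO cells and below them in WT cells. Their differences, KO minus WT, were 0.34 (adjusted p = 0.224) and 0.27 (adjusted p = 0.224) by edgeR's quasi-likelihood test, and neither was called. RPL28 changed by 0.30 ± 0.06 in KO cells and by −0.04 ± 0.06 in WT cells, and MRPL39 by 0.15 ± 0.05 in KO cells and by −0.13 ± 0.05 in WT cells. Groups of 3 libraries are too small for a test of single outlying libraries.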

How the results depend on the processing

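Called genes in KO etoposide against KO T0 numbered 214. They were 332 when scaled to the non-targeting guides, 328 with DESeq2, 115 without the most abundant guide of each gene and 93 to 136 without 1 library. Each of the 6 libraries moved that count by more than 1.5 times, to 136, 120 and 130 without KO etoposide A, B and C, and to 107, 93 and 127 without KO T0 A, B and C. Whether the replicate letters pair the libraries is not stated. Deviations of same-lettered KO etoposide and KO T0 libraries from their group means correlated at 0.11, −0.02 and 0.02. With 3 noisy libraries a group, these values cannot settle it. With the replicate block 225 genes were called, 214 of them shared. Of alternatives chosen after the data were seen, HGLibA guides alone gave 96, HGLibB guides alone 46, and leaving out KO etoposide A and B 29. Single guides called were 50, 103 when scaled to the non-targeting guides, 63 with the replicate block and 19 to 46 without 1 library, with 21, 28, 23, 19 and 22 without KO etoposide A or B or KO T0 A, B or C. Etoposide against DMSO called 806 genes, 500 in a fit of these libraries alone, 837 with the replicate block and 519 (without KO etoposide A) to 688 without 1 library. KO minus WT called 1 gene, 14 with DESeq2, 17 in a fit of only the groups compared, 0 without the most abundant guide, 1 with the replicate block and 1 to 3 without 1 library. It was 2 without KO etoposide A, KO T0 C or WT T0 A or B, and 3 without WT etoposide B. The causes were not tested.

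Changes of sign concerned genes near 0 and CASP6. SLFN11 was at −0.00504 under the non-targeting scaling and −0.0189 to 0.0648 without 1 library. ABCC1 was at −0.0575 to 0.0311 without 1 library and 0.0674 with HGLibA guides, and TMSB4Y at 0.00804 with HGLibA guides. CASP6 was at −0.15 without KO etoposide A and B, −0.0885 with HGLibB guides and −0.239 to 3.37 without 1 library. Of 66 called genes followed, 32 kept the call without each library in turn. With HGLibB guides alone TOP2A, TDP2, HUS1, HSPA8 and GPX4, among others, lost the call against T0. With HGLibA guides alone ATR, BCL2L1, LIG4 and FZR1, among others, lost it. KLF5 lost it with either set, while CCNA2, MYC, PKMYT1, PMAIP1 and RAD9A kept it with both. Called genes outside the rule for named genes, among them CHEK1, RAD1 and APAF1, were not followed. With 3 libraries a group, a gene that was not called is not shown to be unchanged.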
